A study of Mus musculus with 4 samples.

Results

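The natriuretic peptide system of the infarcted mouse heart was followed through 6 genes. They are the ligand genes Nppa and Nppb, the peptide-processing protease gene Corin, and the receptor genes Npr1, Npr2 and Npr3. They were taken by symbol from the 32285 genes of the deposited tables, and all 6 were found. Visium spatial transcriptomics had been run on 4 fresh frozen heart sections, 1 each at days 1, 4, 7 and 14 after permanent ligation of the left anterior descending coronary artery. Each section came from 1 ICR mouse, female per the study's methods and 12 weeks old, with no transgene, so all 4 hearts share the surgery and differ in day and animal. No uninjured or sham-operated section was analysed here, so the levels have no baseline. The results text of the study names day 2 where the labels and methods give day 1, and day 1 is used here.

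A Visium spot is a printed area of barcoded probes that collects RNA from the several cells above it, and a UMI, or unique molecular identifier, marks 1 captured mRNA molecule. The sections held 2151, 2026, 2184 and 2741 spots on days 1, 4, 7 and 14 and between 10983077 and 17315715 UMIs. Between 77.6% and 93.5% of the barcodes of the smaller section of a pair also occurred in the other section, and Visium slides share 1 printed set of barcodes. Levels are given as CPM, the UMIs of a gene per 1000000 UMIs. A spot's heart muscle content was ranked within its section by the share of its UMIs from Myh6 and Myl2, which encode cardiac myosin chains. Spots were cut into 4 groups of equal size by this rank, Q1 to Q4, with Q1 the lowest in heart muscle RNA. In a mixed spot, fewer cells of a type and less RNA per cell cannot be told apart.

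Heart muscle cells make the atrial natriuretic peptide (ANP) from Nppa and the B-type peptide (BNP) from Nppb, and they release both when stretched. In the adult heart ANP belongs mainly to the atria, and its return in the ventricle is a classic mark of the stressed muscle cell. Corin, a membrane protease of heart muscle cells, cuts pro-ANP into its active form. Npr1 encodes the receptor for ANP and BNP and Npr2 the receptor for the C-type peptide, and both are guanylyl cyclases that make cyclic GMP. Npr3 encodes the clearance receptor, which takes the peptides up and removes them.

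Nppa and Nppb are neighbours on the plus strand of mouse chromosome 4 (GENCODE vM21 on GRCm38). Nppb lies at chr4:147985788-147987205 and Nppa at chr4:148000722-148002079, with 13517 bases between the end of Nppb and the start of Nppa. Npr2 lies on the same chromosome at chr4:43631935-43651244, Npr1 at chr3:90450591-90465866, Npr3 at chr15:11839896-11907287 and Corin at chr5:72300025-72504473. Parts of the start regions of both ligand genes are shown because the windows searched held letters known as binding motifs of heart factors. The annotated starts differ for Nppb. Its RefSeq promoter window ends before position 147985900, the GENCODE gene begins at 147985788, and the earliest annotated start, 147985786, is also from RefSeq. Limits of genes and transcripts were read, and those of exons were not checked. The sequences are the RefSeq reference of GRCm38.p6, not that of the ICR mice. Capitals mark GATA (the core of GATA factor sites), AAGTG (the core of the Nkx2-5 site) and TATAAA on either strand.
Nppa, the 250 bases before its start, chr4:148000472-148000721, plus strand: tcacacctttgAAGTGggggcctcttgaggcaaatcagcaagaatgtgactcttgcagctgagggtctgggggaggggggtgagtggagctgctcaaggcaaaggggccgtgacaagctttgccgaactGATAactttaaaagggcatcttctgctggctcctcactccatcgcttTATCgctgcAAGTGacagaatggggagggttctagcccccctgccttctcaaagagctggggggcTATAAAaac
Nppb, the 136 bases of its window before the earliest annotated start, chr4:147985650-147985785, plus strand: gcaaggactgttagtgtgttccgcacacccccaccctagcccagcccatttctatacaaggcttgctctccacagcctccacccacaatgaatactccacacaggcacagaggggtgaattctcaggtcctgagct
Nppb, 21 bases after the GENCODE start of the gene and before the later RefSeq start, chr4:147985803-147985823, plus strand: gctGATAaatcagaGATAacc
In the 250 bases of its RefSeq promoter window, Nppa held 2 matches to GATA, 2 to AAGTG and 1 to TATAAA. Nppb held 2 matches to GATA, 1 to the M-CAT letters CATTCC and 1 to TATAAA. All of the Nppb matches lie after the GENCODE start of the gene, within its annotated transcript, and the 136 bases before the earliest start held none. The other 4 genes held none of these letters, and none of the 6 genes held TGANTCA, the CArG box or the MEF2 site. Of 32851 promoter windows of that length, 53.6% held GATA, 40.7% AAGTG, 12.6% CATTCC and 12.4% TATAAA, so short matches of this kind are common.

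Over whole sections, the ligand genes differed most between days and the receptor and protease genes least. Nppa stood at 1267, 6686, 1274 and 146 CPM on days 1, 4, 7 and 14. Day 4 was far above the other days, the 95% counting intervals of days 1 and 7 overlapped (1247 to 1286 and 1253 to 1296 CPM), and day 14 was the lowest. The level on day 4 was 45.7 times that on day 14 (interval 44.0 to 47.6). Among the 5157 genes with at least 1000 UMIs, 0.252% differed between their highest and lowest days by at least this factor, and 3.16% differed at least 4-fold.

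Nppb followed another course, with 727, 322, 734 and 129 CPM on days 1, 4, 7 and 14. It was thus lower on day 4, where Nppa was highest, than on days 1 and 7, whose intervals overlapped (712 to 742 and 718 to 750 CPM). Its highest over lowest day gave 5.69-fold (5.43 to 5.97), a factor that 1.80% of the same genes reached. The number of Nppa UMIs per Nppb UMI was 1.74, 20.8, 1.74 and 1.13 in the same order of days. Both ligand genes were past the 4-fold mark and the other 4 genes were not. With 1 mouse a day the intervals hold only counting error, and days could not be tested against each other.

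Corin was present at 74.1, 77.5, 57.8 and 62.1 CPM on days 1, 4, 7 and 14, a spread of 1.34-fold (1.22 to 1.48) that 62.5% of genes reached. The intervals of days 1 and 4 overlapped, as did those of days 7 and 14. Npr2 was the most counted receptor gene in each section, at 20.1, 21.2, 24.8 and 17.0 CPM. With its days sorted by level, each pair of neighbours had overlapping intervals. Npr1 stood at 9.49, 6.55, 10.0 and 5.43 CPM and Npr3 at 4.75, 2.57, 5.10 and 3.41 CPM on the same days. For Npr1 and for Npr3 too, neighbours among the days sorted by level overlapped in their intervals. In order of time some neighbouring days did not overlap, such as days 7 and 14 for Npr1 and Npr2 and days 1 and 4 for Npr3. The highest over the lowest day gave 1.84-fold (1.39 to 2.46) for Npr1, 1.45-fold (1.23 to 1.72) for Npr2 and 1.99-fold (1.2996 to 3.06) for Npr3. For each of the 6 genes these 2 days were picked by level, so the factor is at least 1 by construction. The intervals do not allow for that choice. Such factors were reached by 19.4%, 45.8% and 16.1% of the same 5157 genes, all with at least 1000 UMIs. Npr1 and Npr3 had fewer, so they are set against genes with more counts. These receptor levels rest on few molecules, with 426 UMIs of Npr1, 1151 of Npr2 and 215 of Npr3 over all sections, against 136662 of Nppa, 24496 of Nppb and 3855 of Corin.

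**Figure D1:**
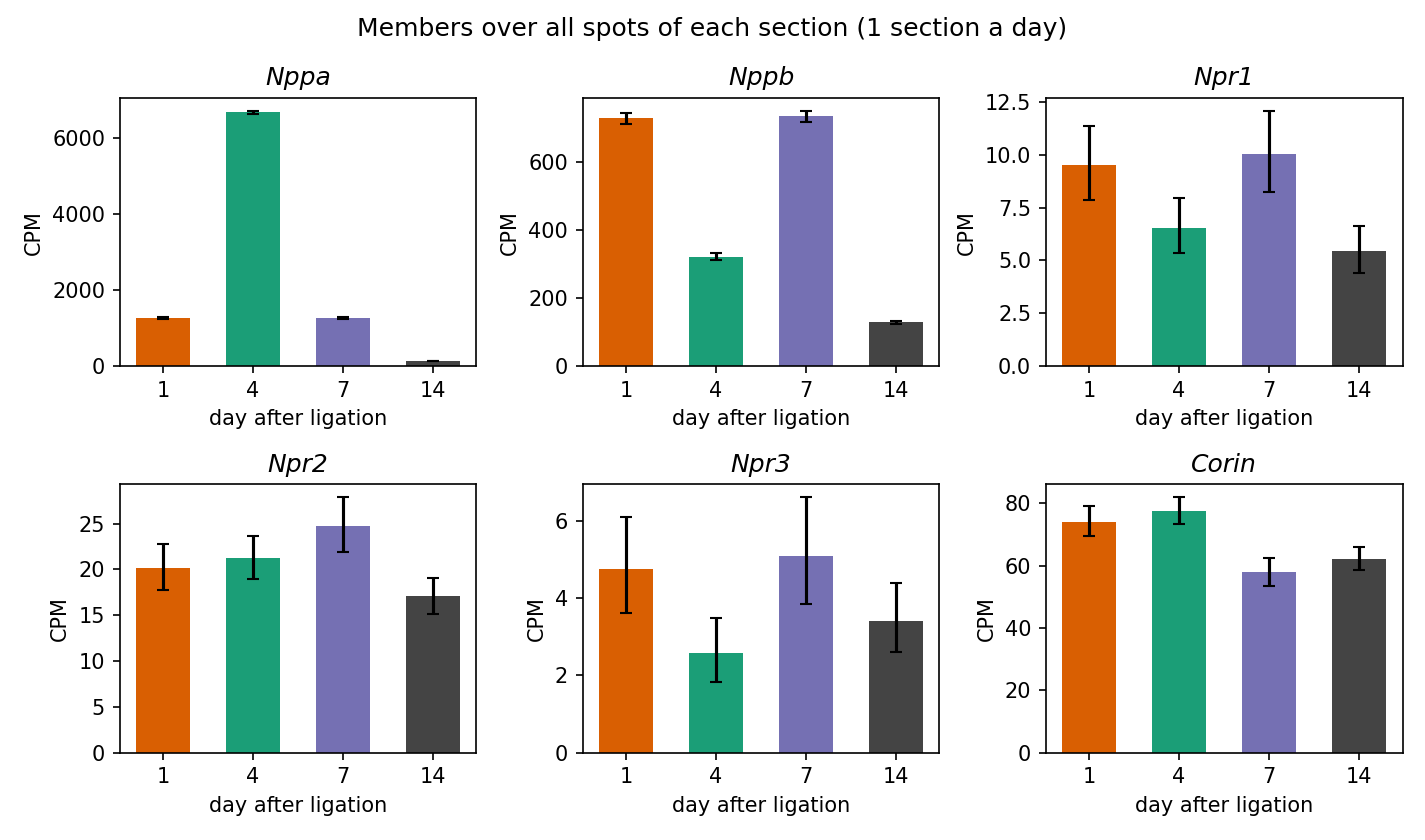
CPM of each of the 6 genes over all spots of the section of each day (1 section and 1 mouse a day), with bars from 0 and exact Poisson 95% intervals. Nppa peaks at 6686 on day 4 and Nppb is high on days 1 and 7, while Corin stays between 57.8 and 77.5 and the receptor genes have wide intervals.

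The ligand RNA was also unevenly spread over the spots. The richest 10% of spots for each gene were then taken. For Nppa they held 67.5%, 56.7%, 78.5% and 92.1% of the Nppa UMIs of the section on days 1, 4, 7 and 14. For Nppb that share was 56.1%, 55.2%, 34.6% and 52.5%. Nppa was the most concentrated on day 14, when its level was lowest, and Nppb was the most widely spread on day 7. Few UMIs alone raise this share, which was 100% on each day for the sparse genes Npr1 and Npr3. The part of counts in these shares was not tested. On day 14 only 50 of 2741 spots had at least 10 Nppa UMIs, and these held 67.5% of the Nppa UMIs of that section. A single spot held up to 834 Nppa UMIs on day 4 and up to 63 Nppb UMIs on day 1.

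Along the ranking by heart muscle content, Nppa was high in the low groups. In Q1 to Q4 it stood at 3637, 1531, 142 and 110 CPM on day 1 and at 11873, 16319, 2035 and 709 CPM on day 4. On day 7 it stood at 1441, 3160, 279 and 288 CPM and on day 14 at 918, 65.3, 35.3 and 93.3 CPM. In each of the 4 sections Q1 exceeded Q4, by between 2.32 and 5.05 on the log2 scale of plain CPM. The highest group was Q1 on days 1 and 14 and Q2 on days 4 and 7. Groups were cut within each section, so those of the same name differ in heart muscle content between days. The median Myh6 and Myl2 share of Q1 spots was 0.785%, 0.197%, 0.229% and 0.901% on days 1, 4, 7 and 14. For Q2 spots it was 1.55%, 1.28%, 1.82% and 2.06%.

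Nppb had the same slope early and a different one on day 7. It stood at 1937.5, 962, 127 and 81.6 CPM in Q1 to Q4 on day 1 and at 594, 659, 126 and 83.8 CPM on day 4. On day 7 it stood at 228, 990.4, 758 and 749.8 CPM, so that the 3 muscle-rich groups were all high and Q1 was the lowest. On day 14 it stood at 218, 151, 109 and 88.4 CPM. In Q4 the day 7 section thus had a level of Nppb far outside the range of 81.6 to 88.4 CPM in the other 3 sections.

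The 2 ligand genes parted within the day 7 section and, at lower levels, within the day 14 section. Day 7 had 6.33 Nppa UMIs per Nppb UMI in Q1, 3.19 in Q2, 0.368 in Q3 and 0.384 in Q4. On day 4 Nppa exceeded Nppb everywhere, with 20.0, 24.8, 16.1 and 8.46 Nppa UMIs per Nppb UMI. On day 1 the ratio moved little, from 1.88 in Q1 to 1.12 in Q3, and on day 14 it was 4.20, 0.432, 0.325 and 1.06.

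A part of the day 7 section, with skeletal muscle RNA, was taken as a reference. In that section 132 spots held at least 10 UMIs of a list of 10 fast skeletal muscle genes, and no spot of the other sections did. Of these, 129 lay in Q1, which has 546 spots, and 3 in Q2. In the other 417 spots of Q1, Nppa stood at 1936 CPM and Nppb at 302 CPM, so Nppb was still the lowest in Q1. In the 132 skeletal muscle spots, with a median of 4019 UMIs, Nppa stood at 289 CPM (245 to 338) and was found in 70.5% of spots. Q4 of the section, with a median of 5451 UMIs, had 288 CPM (269 to 308) in 48.5% of spots. Nppa in Q4 of day 7 as a whole was thus not above the level in the skeletal muscle spots, and the 279 CPM of Q3 was not either. All skeletal muscle spots lay in Q1 and Q2, where Nppa was high, and spot positions were not analysed. Their level need not be the background of Q3 and Q4. Expression of Nppa is neither read from nor denied to Q3 and Q4, and the source of the Nppa UMIs in any of these spots was not tested. Nppb in the skeletal muscle spots stood at 57.0 CPM (38.7 to 80.9) and was found in 22.0% of spots. In Q4 it stood at 749.8 CPM (719 to 781) in 90.5% of spots, above that reference. The other sections had no such spots, so the low levels of Nppa and Nppb in their Q3 and Q4 have no reference of this kind.

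Finer steps showed that neither ligand peaked where heart muscle RNA was scarcest, except for Nppb on day 1. In 10 bins of spots of equal size by the same rank, with bin 1 the lowest, Nppa on day 4 stood at 2206 CPM in bin 1, 22926 CPM in bin 3 and 625 CPM in bin 10. On day 7 it had 269 CPM in bin 1 and 7159 CPM in bin 3, and on day 14 it had 262 CPM in bin 1 and 2116 CPM in bin 2. Day 1 had a broad top of 3071 to 3698 CPM over bins 1 to 3. Nppb peaked in the same bins as Nppa on days 4, 7 and 14, at 1063, 1094 and 415 CPM, and its level in bin 1 was 79.0, 55.6 and 35.9 CPM. On day 7 it then stayed between 737 and 864 CPM from bin 5 to bin 10, where Nppa was at 167 CPM in bin 10. Against the 289 CPM of the skeletal muscle spots, single bins of Nppa at this end lay on both sides, with 372 CPM (339 to 408) in bin 8 and 167 CPM (145 to 193) in bin 10. Of the 132 skeletal muscle spots, 66 lay in bin 1, 55 in bin 2 and 11 in bin 3.

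The higher level of Nppa at the muscle-rich end of day 14 rested on very few spots. Bin 10 of that section stood at 298 CPM against 22.3 CPM in bin 9. Of the 306 Nppa UMIs of bin 10, 278 lay in 4 spots and 223 in 1 of them.

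**Figure D2:**
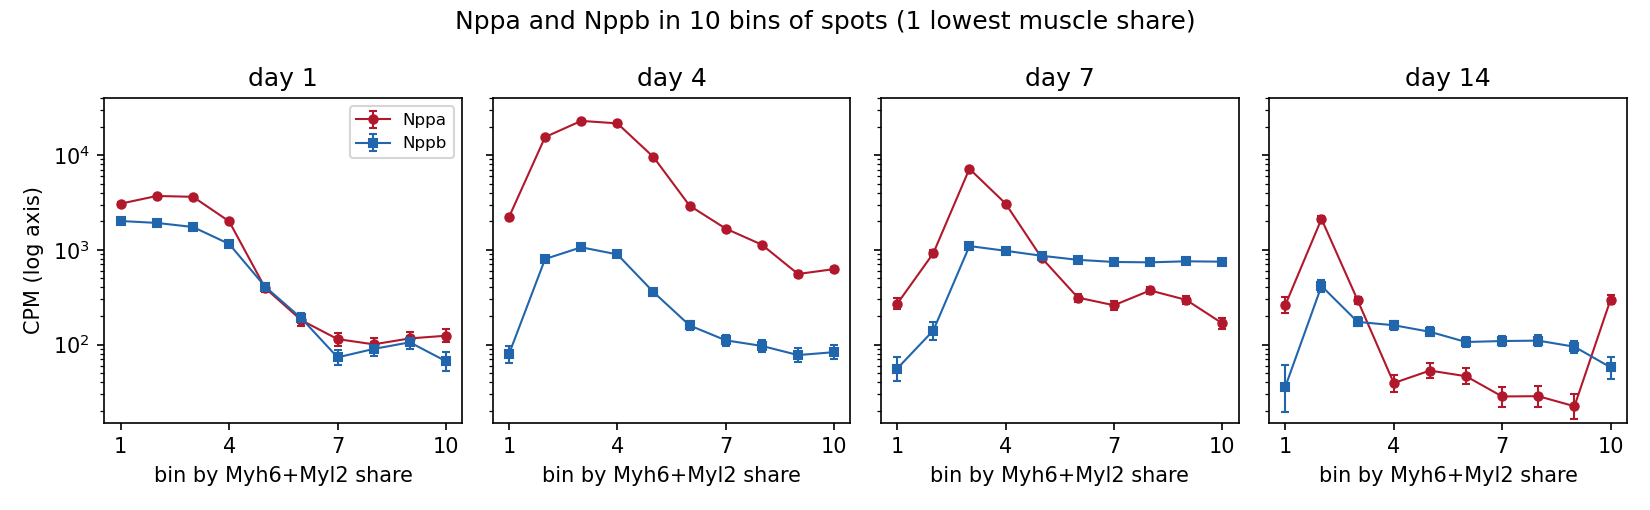
CPM (log axis) of Nppa (circles) and Nppb (squares) in 10 bins of spots ranked by Myh6 and Myl2 share within each section, with bin 1 the lowest share and exact Poisson 95% intervals. The 2 genes peak in the same low bins on days 4, 7 and 14 and part in the upper bins of day 7, where Nppb stays between 737 and 864 and Nppa is at 167 in bin 10. In bins 4 to 9 of day 14 Nppb is also above Nppa, at 94.8 to 160 against 22.3 to 53.1, while bin 10 has more Nppa.

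The low groups also differed in cell makeup and depth. Summed CPM of the 10 fast skeletal muscle genes was 18408 in Q1 of day 7 against 99.4 in Q4. Summed CPM of 8 fibroblast and matrix genes ranged from 2697 to 36937 in Q1 and from 2657 to 3655 in Q4, and all but day 1 had more in Q1. Summed CPM of 7 macrophage genes ranged from 1047 to 6029 in Q1 and from 311 to 460 in Q4. The median depth of a Q1 spot was 1265 UMIs on day 14, 3017 on day 7 and 6016 to 6092 on days 4 and 1. The mitochondrial share of UMIs ranged from 9.78% to 25.1% in Q1 and from 27.2% to 33.6% in Q4. The part of these in the differences between the groups was not tested. Of 7 atrial genes, Bmp10 had 0 UMIs in each section and Myl7 had 4 to 7, and neither could be tested. Of the 5 tested by edgeR between Q1 and Q4 (where 28.9% of all genes were higher), 4 were higher in Q1 (Dkk3, Sln, Upk1b and Myl4) and 1, Stard10, was lower, with a median log2 value of 3.04, and 2 spots, both of day 7, had at least 10 UMIs of the list. The summed CPM of the 7 genes ranged from 8.68 to 373 in Q1 and from 18.2 to 28.0 in Q4, and over whole sections Dkk3, Stard10 and, on day 7, Sln made up most of it. Sln had 209 UMIs on day 7, the section with skeletal muscle spots, and 0 to 2 in each other section. Whether the higher genes come from atrial cells here was not tested. In the spots with at least 10 Nppa UMIs that sum was 10.2, 49.3, 115 and 104 CPM on days 1, 4, 7 and 14, against 22.7, 32.0, 76.2 and 29.9 CPM in spots with none.

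Differences between these groups over the 4 sections were tested with edgeR's quasi-likelihood test. It used UMIs summed per section and group, with the section as a block. The p-values were adjusted over 11781 genes by the Benjamini-Hochberg method. The test scales each sum by TMM, a factor that takes most genes to be equal between sums. Fitted values are log2 differences on this scale. The block takes up differences in level between sections. The spread behind these p-values is that of the group differences from section to section, and the 4 sections differ in day and animal. Between Q1 and Q4, 2 of the 6 genes passed, Nppa as higher and Corin as lower in Q1, where 55.1% of all genes passed (28.9% higher and 26.2% lower). With so many genes passing, the assumption behind TMM is not met for this comparison. Some values with library totals in place of TMM are therefore given below.

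Nppa was higher in Q1 than in Q4 by 3.10 ± 0.74 (log2, SE), an 8.60-fold difference, with edgeR adjusted p = 0.00392 and the same direction in 4 of 4 sections. The call was lost when the section block was left out (adjusted p = 0.0939). Nppb differed by 1.38 ± 0.87 with adjusted p = 0.203, and 3 of the 4 sections had it higher in Q1. Without the day 7 section the difference in Nppb was 2.34 with adjusted p = 0.0119.

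Corin had the opposite slope, with the lowest level in Q1 and the highest in Q4 in each section. In Q1 to Q4 it stood at 47.4, 69.6, 80.0 and 95.8 CPM on day 1, at 27.0, 63.5, 86.0 and 115 CPM on day 4, at 9.45, 51.0, 73.6 and 77.3 CPM on day 7 and at 39.1, 58.7, 63.8 and 74.3 CPM on day 14. It was lower in Q1 than in Q4 by a log2 value of -2.25 ± 0.31 (edgeR adjusted p = 4.7e-05), and this held in 4 of 4 sections and in each of 17 alternative settings. Corin is itself a gene of heart muscle cells and the spots were ranked on heart muscle genes, so this direction is built into the ranking. The alternative rankings also used heart muscle genes and add no separate evidence. In the skeletal muscle spots of day 7 a single UMI of Corin was counted in 132 spots.

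Of the 3 receptor genes 0 passed the test between Q1 and Q4 in edgeR or in DESeq2, and 1, Npr2, had an unadjusted edgeR p under 0.05. Of all 11781 genes 7035 had such an unadjusted edgeR p, and 55.1% passed in edgeR. Npr1, the ANP and BNP receptor gene, stood at 12.7, 6.34, 19.4 and 11.7 CPM in Q1 and at 6.35, 4.54, 6.58 and 5.12 CPM in Q4 on days 1, 4, 7 and 14. The groups overlapped by the low value of day 4. The fit gave 0.40 ± 0.29 (edgeR adjusted p = 0.256), and with library totals in place of TMM it gave 1.07 with adjusted p = 0.0043. That scale moves the median of all genes from 0.06 to 0.74.

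Npr2, the C-type peptide receptor gene, stood at 19.0, 24.1, 40.0 and 21.0 CPM in Q1 and at 23.0, 19.8, 22.4 and 16.1 CPM in Q4 on the same days. Its highest level was Q1 of day 7, whose plain CPM was 1.79 times that of Q4 (1.27 to 2.53). The fit gave -0.36 ± 0.16 (edgeR adjusted p = 0.0677), and the direction turned to 0.32 with library totals. It passed the threshold as lower in 3 alternatives, among them that without the day 7 section, where the log2 value was -0.51. Npr3, the clearance receptor gene, stood at 3.67, 4.44, 5.00 and 6.43 CPM in Q1 and at 5.74, 1.82, 4.61 and 3.90 CPM in Q4. The fit gave -0.33 ± 0.31 (edgeR adjusted p = 0.391) and turned to 0.33 with library totals. With 8 to 19 UMIs of Npr3 in each sum, a difference of this size was not detectable at this depth.

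**Figure D3:**
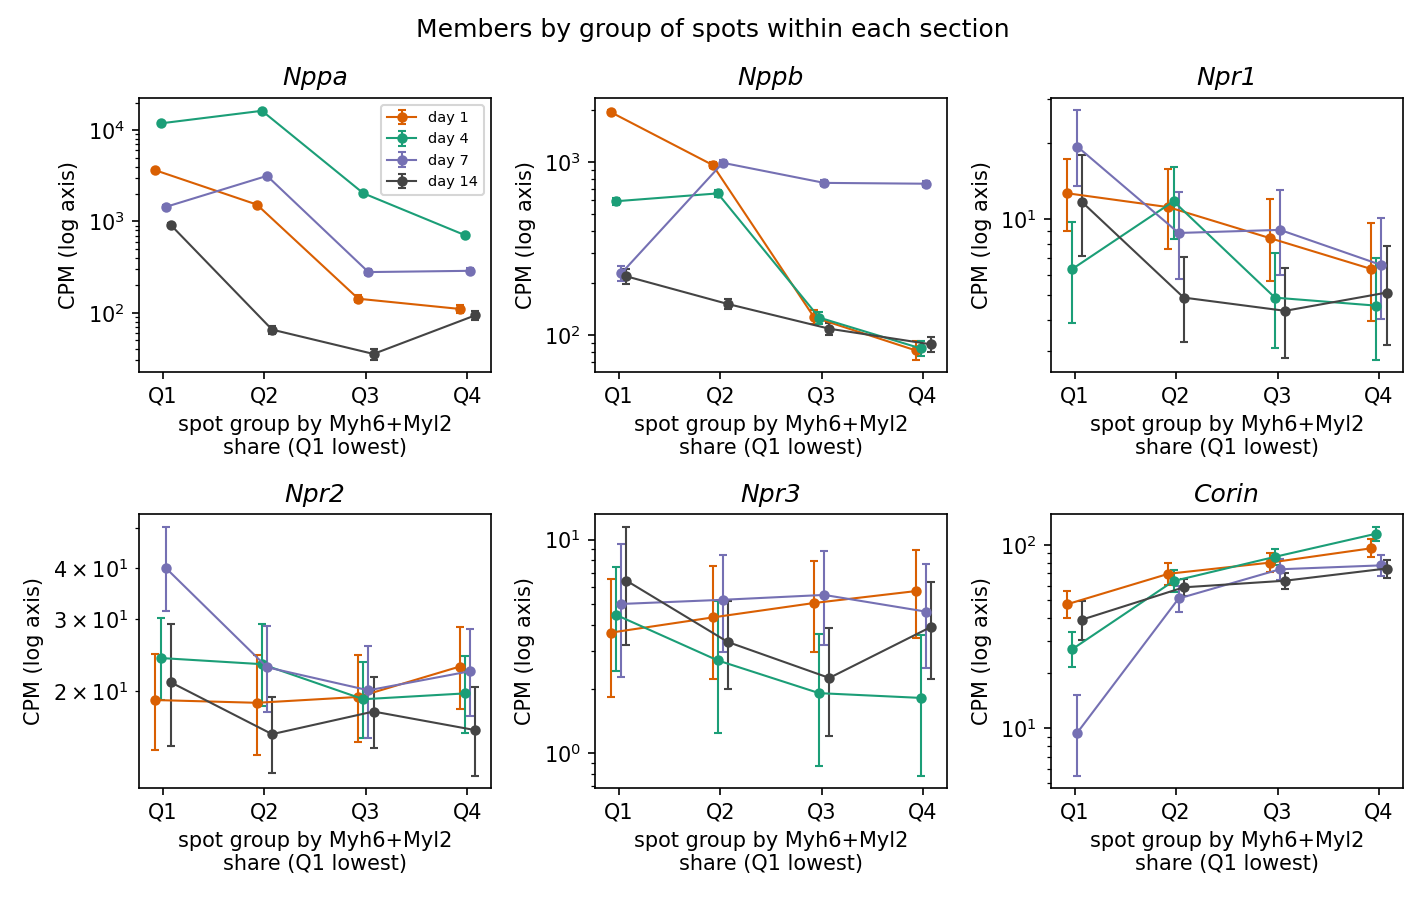
CPM (log axis) of each gene in the 4 groups of spots ranked by Myh6 and Myl2 share within each section, with Q1 the lowest share, 1 line per day and exact Poisson 95% intervals. Nppa is higher in Q1 than in Q4 on every day, with 35.3 in Q3 and 93.3 in Q4 of day 14, Nppb on day 7 is lowest in Q1, and Corin is highest in Q4 on every day.

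Between Q2 and Q4 edgeR called 0 of the 6 genes, where it called 3.79% of all genes (3.12% higher and 0.671% lower). DESeq2 called 1 of them, Nppa, and 566 of all 11781 genes. An unadjusted edgeR p under 0.05 was reached by 2 of the 6, Nppa and Corin, and by 2704 of all 11781 genes. Nppa was higher in Q2 by 2.87 ± 0.76 (edgeR adjusted p = 0.0591), with day 14 against the other 3 sections, and it passed in 5 of 17 alternatives. Without the day 14 section the value was 3.63 with adjusted p = 0.00417. Nppb differed by 1.56 ± 0.82 (adjusted p = 0.291) and was higher in 4 of 4 sections, and Corin by -0.75 ± 0.29 (adjusted p = 0.147), lower in 4 of 4. Between Q1 and Q2 only Corin passed, at -1.50 ± 0.31 (edgeR adjusted p = 0.00251, lower in 4 of 4 sections), where 36.5% of all genes passed. There Nppa differed by 0.24 (adjusted p = 0.826) and Nppb by -0.18 (adjusted p = 0.881), each with sections on both sides of 0. The receptor genes had adjusted p-values between 0.315 and 0.814 in these 2 comparisons.

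**Figure D4:**
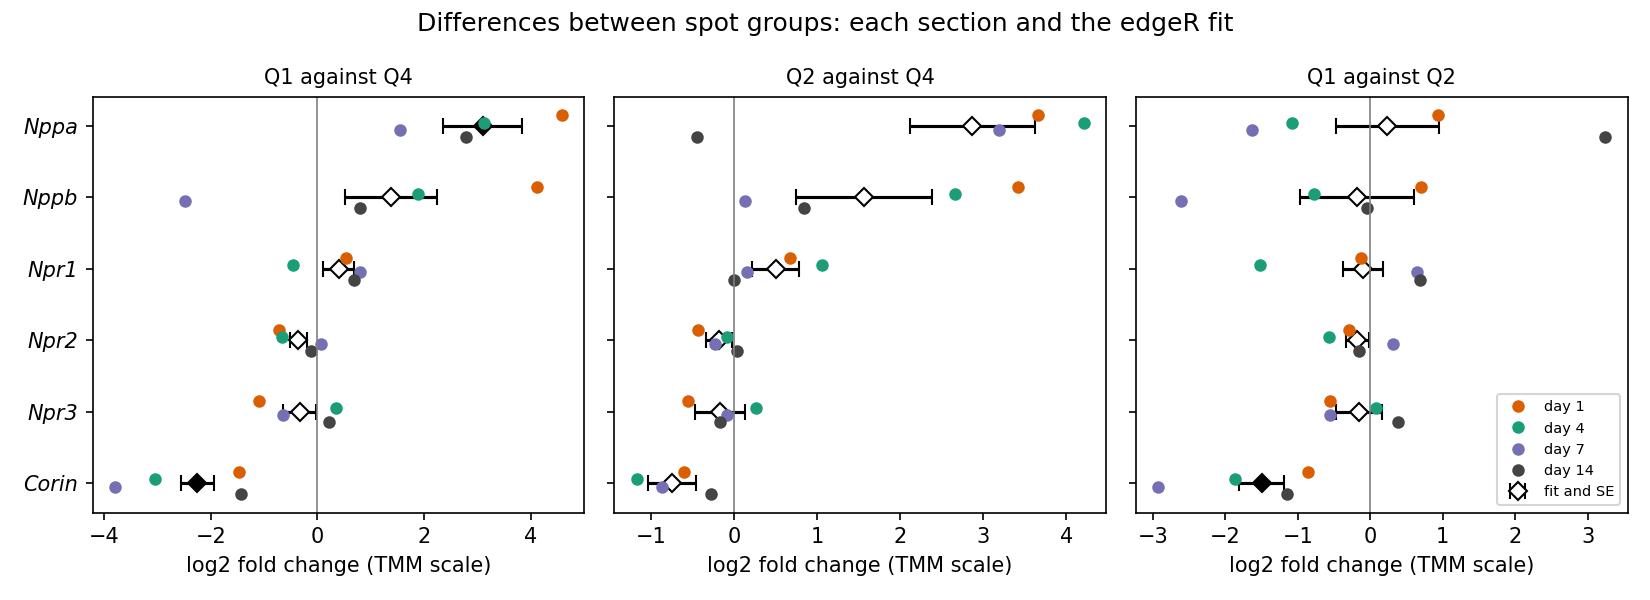
Log2 fold change between groups on the TMM scale for each gene in each section (coloured points) and in the edgeR fit over the 4 sections (diamonds with SE), filled where the adjusted p is under 0.05. Only Nppa and Corin between Q1 and Q4 and Corin between Q1 and Q2 have filled diamonds, and the day 7 point of Nppb lies at -2.48 between Q1 and Q4.

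Nppa and Nppb were often found in the same spots, and how often changed with the day. On day 1, 1291 of 2151 spots had at least 1 Nppa UMI, 1151 had Nppb and 895 had both. The share with both, 41.6% (exact binomial 95% interval 39.5% to 43.7%), was 1.296 times the product of the single shares. This ratio cannot exceed 1 over the larger single share. Its values on different days, here and after thinning, are therefore not on the same scale. On day 4, Nppa was in 1983 of 2026 spots and Nppb in 1182, and 1169 had both, which left 13 spots with Nppb alone. With Nppa nearly everywhere, the ratio to independence could not be far from 1 and was 1.01.

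On day 7, Nppb was the more widespread of the pair, with 1658 of 2184 spots against 1318 for Nppa and 1045 with both, and the ratio was 1.04. In Q4 of that section 44.9% of spots had Nppb alone and 2.93% had Nppa alone, while in Q1 the shares were 6.04% and 39.9%. On day 14, 475 of 2741 spots had Nppa, 1079 had Nppb and 239 had both, a ratio of 1.28. The rank correlation of the 2 genes' shares over spots was 0.68, 0.65, 0.19 and 0.15 on days 1, 4, 7 and 14, given as a description since both shares rest on the same libraries and depths.

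Depth sets how many spots show a UMI, so each spot was also thinned to 1300 UMIs, which left out 102, 37, 100 and 552 shallower spots on days 1, 4, 7 and 14. The expected share with Nppa was then 37.7%, 73.6%, 35.0% and 7.93%, and that with Nppb 34.5%, 27.7%, 50.1% and 14.3%. The ratio of the share with both to independence was 1.96, 1.26, 1.12 and 2.40. On day 14 thinning kept 338 of the 686 spots of Q1 but 657 of the 685 of Q2. The thinned values of that day therefore rest on another mix of groups than the unthinned ones. On day 7 the thinned share with Nppb was 18.0% in Q1 and 56.7% to 64.3% in Q2 to Q4, and that with Nppa was 44.3%, 57.7%, 21.1% and 18.6%.

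Nppb levels were also set against the number of Nppa UMIs in the same spot. In spots with 0, 1 to 9 and at least 10 Nppa UMIs, Nppb stood at 93.1, 458 and 2150 CPM on day 1 and at 49.8, 64.8 and 611 CPM on day 4, where the intervals of the first 2 classes overlapped (27.2 to 83.5 and 59.4 to 70.7). On day 7 the values were 598, 662 and 1293 CPM and on day 14 they were 108, 184 and 798 CPM. The spots with at least 10 Nppa UMIs had the highest level on each day. These classes also differ in heart muscle rank and depth. On day 1, 270 of the 393 spots with at least 10 Nppa UMIs lay in Q1 and 3 in Q4, with a median of 7839 UMIs, while 43 of the 860 spots with none lay in Q1 and 338 in Q4, with a median of 5593 UMIs. The part of rank and depth in the values was not tested. On day 7, spots without any Nppa UMI held Nppb at 598 CPM, above the 57.0 CPM of the skeletal muscle spots.

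**Figure D5:**
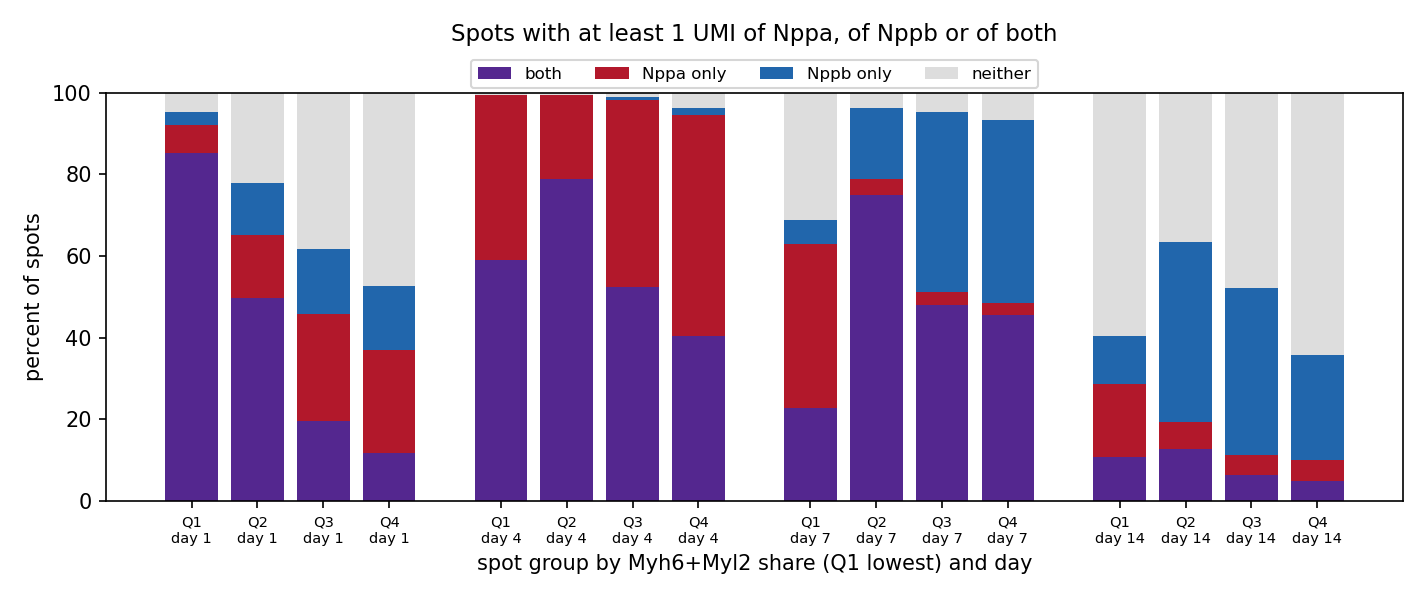
Percent of spots with at least 1 UMI of both Nppa and Nppb, of Nppa alone, of Nppb alone or of neither, by group of Myh6 and Myl2 share (Q1 the lowest) and day. On day 4 nearly all spots have Nppa, and on day 7 Q3 and Q4 have 44.1% and 44.9% of spots with Nppb alone.

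The genes with a course most like that of each member were found by Pearson correlation of log2(CPM + 1) over the 16 sums, centred within each section. They are given with no p, since the 4 sums of a section share 1 animal and the ranking. For Nppa they were Clu (r = 0.96), which encodes clusterin, an extracellular chaperone, Gdf15 (0.96), a stress-induced cytokine gene, and Ace (0.94), which encodes angiotensin-converting enzyme. Clu stood at 3615, 5163, 1050 and 828 CPM in Q1 to Q4 of day 7, with the same top in Q2 as Nppa, and at 5640, 5109, 1044 and 562 CPM on day 4, where its top was Q1 and that of Nppa was Q2. For Nppb they were Ankrd23 (0.94) and Ankrd1 (0.94), which encode stretch-responsive ankyrin repeat proteins of the sarcomere, and Ciao2b (0.93). Ankrd1 stood at 1213, 3578, 1570 and 1603 CPM in Q1 to Q4 of day 7, so it too was lowest in Q1 and highest in Q2. Its Q3 and Q4 lay nearer to Q1 than to Q2, unlike those of Nppb. Since Ankrd1 was picked by its correlation with Nppb over these same sums, some likeness is built in. Nppa and Nppb themselves had r = 0.76. With Npr1, Npr2 and Npr3 in turn, Nppa had r = 0.78, 0.32 and 0.40 and Nppb had r = 0.41, -0.20 and 0.13. These values rest on plain CPM, not on the TMM scale, on which Npr1 did not pass between Q1 and Q4.

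For Corin the most alike genes were Mrpl30, Lmo7 and Atp2a2, each at r = 0.99, and Atp2a2 encodes the calcium pump of the heart muscle cell. For Npr2 they were Abtb1 (0.95), Gaa (0.93) and Thra (0.93). For Npr1 they were Hddc3 (0.90), Maf (0.90) and Vps28 (0.88), and for Npr3 Htatip2 (0.89), Spry1 (0.88) and Sh3glb2 (0.86). These last 2 lists rest on 20 to 39 UMIs of Npr1 and 8 to 19 of Npr3 in each sum.

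Other genes of the pathway moved in both directions between Q1 and Q4. Of a list of 18 genes for peptide processing, breakdown and cyclic GMP signalling, 14 had the 100 UMIs needed for a test. Of these, 2 were higher in Q1, 5 were lower and 7 did not pass, with a median log2 value of -0.07 against 0.06 over all genes. Of all genes 55.1% passed, 28.9% as higher and 26.2% as lower, so 7 of 14 is near the background. With library totals the counts were 6 higher and 3 lower, where 72.4% of all genes passed, 61.2% as higher and 11.3% as lower, with a median of 0.61 against 0.74. The 2 higher genes were Vasp (1.35 ± 0.14), which encodes a substrate of the cyclic GMP kinase, and Furin (0.38 ± 0.14), which encodes a convertase that cuts pro-BNP. Vasp stood at 61.3 to 136 CPM in Q1 and at 20.0 to 34.2 CPM in Q4, with no overlap between sections. Furin lost its call with DESeq2 (adjusted p = 0.0531).

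The lower genes included Kcnj11 (-2.11 ± 0.22), a subunit gene of the ATP-sensitive potassium channel, Pde3a (-1.30 ± 0.15), a phosphodiesterase gene, and Pcsk6 (-1.76 ± 0.31), whose product activates corin. Pcsk6 thus went the same way as Corin along this ranking on heart muscle genes, at 12.4 to 51.4 CPM in Q1 and 56.3 to 74.0 CPM in Q4. Ide (-0.80 ± 0.12), which encodes a peptide-degrading enzyme, was also lower, but at -0.13 with library totals it did not pass (edgeR adjusted p = 0.337). The kinase gene Prkg1 and the phosphodiesterase genes Pde2a, Pde5a and Pde9a did not pass the test. With library totals, where 61.2% of all genes were higher, Pde2a (0.61, edgeR adjusted p = 0.00138) and Pde5a (1.43, edgeR adjusted p = 0.00675) passed as higher. Prkg1 and Pde9a did not pass there either. Nppc, the gene of the C-type peptide that Npr2 binds, had 9 UMIs in all sections together and Ostn, whose product binds Npr3, had 4, so neither was tested.

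Of 22 transcription factor genes known at natriuretic promoters, all were tested. In Q1, 4 were higher, 11 were lower and 7 did not pass, with a median log2 value of -0.49 against 0.06 over all genes, where 28.9% of all genes were higher and 26.2% lower. With library totals 6 were higher and 6 lower, against 61.2% and 11.3% of all genes, with a median of 0.18 against 0.74. The higher genes were Fos (2.25 ± 0.35), Egr1 (1.81 ± 0.34), Nfatc4 (2.12 ± 0.43) and Jun (0.40 ± 0.15), all of them genes of factors induced or activated by stress signals. Jun lost its call with DESeq2 (adjusted p = 0.0738). Among the lower genes, Mef2a (-1.04 ± 0.13), Hand2 (-1.17 ± 0.18), Irx4 (-1.70 ± 0.28) and Tead1 (-0.66 ± 0.11) had the smallest adjusted p-values in edgeR, and they encode transcription factors of heart muscle development. With library totals Tead1 turned to 0.01. Gata4 (-0.87 ± 0.19) and Nkx2-5 (-1.39 ± 0.23), genes of the factors whose motif letters were searched for, were also lower. With library totals Gata4 no longer passed (edgeR adjusted p = 0.309). The spots were ranked on heart muscle genes, so lower levels in Q1 are built into the ranking for factor genes of heart muscle cells. Regulation of Nppa or Nppb by these factors was not tested. Between Q2 and Q4 no gene of either list passed in edgeR or in DESeq2, where edgeR called 3.79% of all genes. An unadjusted edgeR p under 0.05 was reached by 3 of 14 pathway genes and 4 of 22 factor genes. Of all 11781 genes 2704 reached it, so these counts are near the background.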

How the data were processed

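Visium libraries of 4 sections were analysed, 1 per day. The authors aligned reads to mm10 with Space Ranger 1.3.0 after aligning images by hand and deposited UMI counts per gene and spot under tissue, without normalization. No spot was filtered here. UMIs were summed per section and group of spots, and CPM values carry exact Poisson intervals, shares exact binomial intervals and ratios exact conditional intervals, all at 95% and for counting error only. The 16 sums were fitted with edgeR 4.0.16 (TMM, robust quasi-likelihood, section as block, 9 residual degrees of freedom) over 11781 genes of at least 100 UMIs. Myh6 and Myl2, which rank the spots, were not tested. A standard error is the size of the log2 value over the root of its F statistic. The fit was also run on simulated counts in which few genes differed between groups. Here 55.1% of genes passed between Q1 and Q4, so that run cannot show how well TMM scales these data. Alternatives included DESeq2 1.42.0, other scalings, filters, rankings and 5 groups of spots, and each section left out. Images and spot coordinates were not analysed here. Text names the 6 members, the 3 most alike genes of each (among genes with at least 1000 UMIs) and, per pathway list, up to 4 genes each way with the smallest adjusted p. Gata4, Nkx2-5, Nppc, Ostn and the non-passing genes were named after their values were seen. The members and lists were chosen with earlier results of these data known.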

Additional observations from a re-analysis of the deposited data

Results flagged for a closer look

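Some differences between groups of spots ran in opposite directions in sections of different days. Values are log2 ratios of plain CPM unless another scale is named, and the difference between days was not tested, since each day is 1 section. Groups of the same name also differ in heart muscle share between days, and the part of this in the ratios was not tested. For days 1, 4, 7 and 14 in turn, Nppb in Q1 over Q4 was 4.57, 2.83, -1.72 and 1.305. Nppb in Q1 over Q2 was 1.01, -0.15, -2.12 and 0.53, and on the TMM scale its day 14 value was -0.04. Nppa in Q2 over Q4 was 3.80, 4.52, 3.46 and -0.51, and on day 14 a single spot held 223 of the 383 Nppa UMIs of Q4. Nppa in Q1 over Q2 was 1.25, -0.46, -1.13 and 3.81. Npr1 in Q1 over Q2 was 0.18, -0.89, 1.14 and 1.26 on days 1, 4, 7 and 14. Its counting interval of day 1 spanned both directions, and each sum held only 20 to 39 UMIs of Npr1.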

How the results depend on the processing

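Of the values of the 6 genes in the group tests, 267 kept their direction and side of the threshold under the alternatives, 11 newly passed it, 1 no longer passed and 21 turned direction. Of the levels per day 69 moved by less than their counting interval and 27 by more. Of the co-occurrence ratios 15 and 13 did so, and of the counts of genes called 35 stayed within 1.5 times and 16 did not. Where no construction is named, the cause was not tested. Q1 against Q4, Nppa was 3.11 and did not pass without the section block. Nppb was 0.26 to 2.34 as each section was left out in turn and passed only without day 7. Npr1 was 1.07 with library totals. Npr2 was 0.32 with library totals, -0.40 without skeletal muscle spots and -0.50 when ranked on Tnnt2 and Tnni3, both of which passed, and -0.51 to -0.23 as sections were left out. Npr3 was 0.33 with library totals. Q2 against Q4, Nppa passed at 2.84 with DESeq2, 2.94 over genes of at least 1000 UMIs, 3.43 ranked on Myl2 alone and 3.39 with 5 groups of spots, and it was 2.42 to 3.63 as sections were left out, passing without day 14. Corin passed at -0.98 with 5 groups. Q1 against Q2, where only Corin passed, Nppa turned to -0.74 without the block, -0.056 ranked on Myl2 and -0.46 with 5 groups, and was -0.36 to 0.76 as sections were left out. Nppb turned to 0.28 with library totals and 0.030 ranked on Myh6, and was -0.83 to 0.062 as sections were left out. Npr1 turned to 0.40 with library totals, 0.10 ranked on Tnnt2 and Tnni3 and 0.20 ranked on Myh6, and was -0.36 to 0.37 as sections were left out. Npr2 turned to 0.34 and Npr3 to 0.35 with library totals. Npr3 also turned to 0.086 over spots with at most 1% hemoglobin UMIs, 0.38 ranked on Tnnt2 and Tnni3, 0.10 ranked on Myh6 and 0.015 with 5 groups. Npr1 and Npr3 were not tested over genes of at least 1000 UMIs.

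Genes called between Q1 and Q4 numbered 6493, and 3547 over genes of at least 1000 UMIs, where fewer genes were tested. Between Q2 and Q4 edgeR called 447, against 251 over genes of at least 1000 UMIs, 273 over spots of at least 1000 UMIs, 270 without skeletal muscle spots, 244 ranked on Myh6 and 2373 with 5 groups. It called 0 without the section block, where 1564 genes had an unadjusted p under 0.05. As each section was left out it called 0 to 1542, with 0 without day 4 (1344 genes at an unadjusted p under 0.05), 1 without day 1, 1 without day 7 and 1542 without day 14. Between Q1 and Q2 it called 4300, against 7084 with library totals, 2684 over genes of at least 1000 UMIs, 2781 without the block and 2684 to 4505 as sections were left out (2684 without day 4 and 2714 without day 7).

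With mitochondrial genes left out of the total, the levels on days 1, 4, 7 and 14 were 1740, 9469, 1684 and 221 CPM for Nppa, 999, 456, 969 and 194 CPM for Nppb and 102, 109.8, 76.4 and 93.8 CPM for Corin. They were 13.0, 9.28, 13.2 and 8.19 CPM for Npr1, 27.6, 30.01, 32.7 and 25.7 CPM for Npr2 and 6.52, 3.64, 6.74 and 5.14 CPM for Npr3. Over spots with at most 1% hemoglobin UMIs, Nppa was 1312 CPM on day 1 and 6631 CPM on day 4, and Nppb 749 CPM on day 1.

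The ratio of spots with both ligands to independence was 1.96, 1.26, 1.12 and 2.40 on days 1, 4, 7 and 14 after thinning. Within groups and without thinning it was 1.05, 1.22, 1.21 and 1.16 in Q1 to Q4 of day 1, and 1.26 in Q1 of day 7. It was 1.66 in Q1 and 1.57 in Q4 of day 14. After thinning the same groups had 1.06, 1.56, 1.78 and 1.68 on day 1, 1.60 on day 7, and 2.20 and 1.54 on day 14. Without thinning, and with spots called by a share above the median of all sections, the ratio was 1.40 on day 1 and 1.46 on day 14. No paired analysis was possible between days because each day has 1 section. The groups Q1 to Q4 of a section were paired in the tests, with the section as the block.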
